A study of Mus musculus with 2 samples.

Results

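The 10 genes described here act in chromatin silencing or in the nuclear envelope, and were followed through the cells of the mouse olfactory epithelium: Kdm1a, Rcor1, Smchd1, Cbx5, Ehmt2, Setdb1, Ezh2, Lbr, Lmnb1 and Lmna. They were taken by symbol, 10 of 31053 genes in the feature table, and all 10 were found. The cells came from a male C57BL/6 mouse at postnatal day 28 in which a nostril had been closed at postnatal day 14 (unilateral naris occlusion). No engineered allele is named in the labels. Dead cells were removed from frozen, dissociated cells of each side of the epithelium, and 1 library of the closed side and 1 of the open side were made with the Chromium Single Cell 3' v3 kit. No source used here ties either library to a side, so they are called library 1 and library 2 and no effect of the occlusion is given.

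The olfactory epithelium makes sensory neurons throughout life. Horizontal basal cells (HBC) are its reserve stem cells, globose basal cells (GBC) divide, immediate neuronal precursors (INP) leave the cell cycle, and immature and then mature olfactory sensory neurons (OSN) follow. Each neuron comes to express a single odorant receptor gene, while the other receptor genes lie in heterochromatin that carries histone H3 lysine 9 methylation. The demethylase LSD1, encoded by Kdm1a, is known for its need during receptor choice, and its transient presence in differentiating neurons is part of the textbook account. In rodent olfactory neurons the lamin B receptor, encoded by Lbr, is known to be shut off, and heterochromatin then gathers in the middle of the nucleus.

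Both libraries were used, with 4501 and 7990 barcodes, 27212821 and 49221001 molecules (unique molecular identifiers, UMIs), and 3032 and 5266 cells kept. Median UMIs per kept cell were 5528 and 5139.5. Levels are given as counts per 1000000 (CPM) of the UMIs summed over the cells of a group. Ranges in brackets are exact 95% Poisson intervals, which cover counting error only. With 1 library a side from 1 animal nothing was tested, and a gene counts as higher or lower where its level differs by over 2-fold after 1 CPM is added. The cells fell into 38 clusters made without the 10 genes or the receptor genes, and 7 clusters (992 cells) stayed unnamed. A lower CPM and a smaller share of cells that express a gene cannot be told apart in these sums.

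The lineage held 2999 cells in 10 clusters, and 7 of these (2599 cells) were ordered by known stage genes, an order set after their levels were seen. The other 3 were given no place. Cluster 15 (immature OSN-like, 157 cells) and cluster 25 (mature OSN-like, 88 cells) had median UMIs of 13118 and 11953, and cluster 16 (155 cells) was unnamed. Cluster 11 (GBC-like, 197 cells) had the proliferation gene Mki67 at 338 CPM. Cluster 19 (INP-like, 141 cells) had the precursor factor Neurod1 at 1587 CPM and Mki67 at 411 CPM, and its 50 leading genes also held 8 GBC markers. Cluster 12 (INP-like, 199 cells) had Neurod1 at 1441 CPM with Mki67 at 24.5 CPM, and its 50 leading genes held 5 markers of immature neurons beside 4 of precursors. Cluster 8 (immature OSN-like, 229 cells) led with Tex15 at 2092 CPM, and cluster 2 (immature OSN-like, 511 cells) with the growth-cone gene Gap43 at 1717 CPM. Omp, the mark of mature neurons, was at 2819 CPM in the unnamed cluster 5 (405 cells) and at 5643 CPM in cluster 1 (mature OSN-like, 917 cells). Odorant receptor UMIs averaged 1.34, 1.04, 0.754, 5.52, 20.6, 46.6 and 52.4 per cell in clusters 11, 19, 12, 8, 2, 5 and 1. With each cell thinned to 2000 UMIs, 66.7% of the cells of cluster 8 held a receptor UMI. The share was 9.23%, 9.22% and 6.60% in clusters 11, 19 and 12, and 3.87% to 15.9% in the 14 classes outside the neuronal lineage, so receptor UMIs first stood above that background in cluster 8.

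The promoters of the genes that stood highest in these middle clusters, and of Ezh2 for contrast, are shown because the account of the lineage turns on these genes. The windows, from RefSeq on GRCm38.p6, run from 250 bases before to 50 bases after the listed start site, 5′ to 3′ on the strand of the gene. Capitals mark each match to a searched motif. Smchd1 lies at chr17:71475294-71475593 on the minus strand, Rcor1 at chr12:111039117-111039416 on the plus strand, Kdm1a at chr4:136602674-136602973 on the minus strand and Ezh2 at chr6:47594981-47595280 on the minus strand.
Smchd1: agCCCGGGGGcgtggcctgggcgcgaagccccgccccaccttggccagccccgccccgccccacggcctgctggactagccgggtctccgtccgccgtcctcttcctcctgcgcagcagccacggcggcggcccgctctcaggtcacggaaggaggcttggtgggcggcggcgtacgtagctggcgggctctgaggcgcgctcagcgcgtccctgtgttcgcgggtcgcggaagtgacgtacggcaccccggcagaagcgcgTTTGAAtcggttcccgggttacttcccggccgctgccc
Rcor1: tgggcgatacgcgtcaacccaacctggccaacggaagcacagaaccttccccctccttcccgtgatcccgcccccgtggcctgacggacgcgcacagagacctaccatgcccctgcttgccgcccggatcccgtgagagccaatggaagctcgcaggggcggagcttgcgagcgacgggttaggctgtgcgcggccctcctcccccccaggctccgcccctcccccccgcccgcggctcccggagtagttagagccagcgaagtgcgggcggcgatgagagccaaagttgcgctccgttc
Kdm1a: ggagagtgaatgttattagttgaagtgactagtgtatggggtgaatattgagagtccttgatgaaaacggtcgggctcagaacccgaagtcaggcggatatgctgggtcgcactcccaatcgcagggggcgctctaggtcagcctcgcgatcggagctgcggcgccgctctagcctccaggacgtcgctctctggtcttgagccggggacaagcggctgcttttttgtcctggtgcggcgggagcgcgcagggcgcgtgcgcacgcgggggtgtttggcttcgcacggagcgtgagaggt
Ezh2: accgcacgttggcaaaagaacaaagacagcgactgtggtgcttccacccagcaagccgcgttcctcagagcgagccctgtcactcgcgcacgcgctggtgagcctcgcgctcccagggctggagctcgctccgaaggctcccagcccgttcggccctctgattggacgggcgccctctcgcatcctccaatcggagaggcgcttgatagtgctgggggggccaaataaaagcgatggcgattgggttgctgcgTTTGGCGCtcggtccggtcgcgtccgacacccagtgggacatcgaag

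Such windows were found for 9 of the 10 genes, all but Lmnb1. In them 5 motifs were searched on both strands: CCCNNGGG, the core bound by EBF factors, TAATTA, bound by LIM homeodomain factors, TTTCCCGC and TTTGGCGC, bound by E2F factors, and TTTGAA, the cell cycle homology element. No matches of different motifs overlapped in these genes. CCCNNGGG was matched in Smchd1, 248 bases before the start site, and in 13.7% of all 32851 promoter windows. TTTGGCGC was matched in Ezh2, 3 bases after the start site, and in 0.514% of all windows. TTTGAA was matched in Smchd1, 12 bases after the start site, in Lbr, 45 bases before it, and in 17.9% of all windows. TTTCCCGC (1.07% of windows) and TAATTA (5.29%) were matched in none of the 9. The RefSeq start of Ezh2 lies 311 bases from the gene start in GENCODE M21, that of Lbr 645 bases and that of Lmna 6604 bases, so for these 3 the window may not hold the start used in these cells.

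Smchd1, which encodes a structural maintenance of chromosomes family ATPase known for silencing of the inactive X and of imprinted and clustered genes, was high in 2 adjoining clusters. In library 1 its level was 106, 275, 1691, 1446, 87.7, 82.1 and 70.2 CPM in clusters 11, 19, 12, 8, 2, 5 and 1. In library 2 it was 116, 260, 1444, 1466, 91.1, 91.3 and 53.1 CPM. Clusters 12 and 8 thus stood far above every other lineage cluster in each library. In cluster 15, outside the order, it was 234 and 202 CPM. Summed over both libraries Smchd1 was 5.69-fold higher in cluster 12 than in cluster 19 (1505 CPM [1431 to 1582] against 264 [237 to 293]). It was 16.1-fold lower in cluster 2 than in cluster 8 (90.0 CPM [78.9 to 102] against 1460 [1391 to 1532]). With every cell thinned to 2000 UMIs the median cell held 3 Smchd1 UMIs in cluster 12, 2 in cluster 8 and 0 in each of the other 5. The 3 highest cells gave 4.29% of the Smchd1 UMIs of cluster 12 and 5.003% of those of cluster 8, so the sums did not rest on a few cells.

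Rcor1 encodes CoREST, the scaffold that joins LSD1 to histone deacetylases. Its largest rise, from cluster 12 to 8, came 1 step after that of Smchd1, which was high in both clusters. For Rcor1 library 1 gave 39.8, 54.9, 35.5, 576, 88.9, 53.5 and 39.2 CPM along the clusters in the same order. Library 2 gave 31.0, 43.1, 74.2, 662, 108, 93.4 and 40.4 CPM. Of the 7, cluster 8 alone was above 110 CPM in either library, while cluster 15, outside the order, had 139 and 119 CPM. Rcor1 was 9.73-fold higher in cluster 8 (637 CPM [591 to 684]) than in cluster 12 (64.6 [49.9 to 82.1]) and 6.20-fold lower in cluster 2 (102 CPM [90.0 to 115]) than in cluster 8. Although neither gene took part in the clustering, Smchd1 and Rcor1 were both among the 10 leading genes of cluster 8.

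Kdm1a (LSD1) had a broader course. Library 1 held 142, 455, 560, 314, 208, 144 and 82.4 CPM in clusters 11, 19, 12, 8, 2, 5 and 1, and library 2 held 200, 405, 488, 343, 272, 121 and 88.7 CPM. In both libraries the highest level was in cluster 12 and every later cluster was lower than the one before. Kdm1a was 2.31-fold higher in cluster 19 than in cluster 11 (419 CPM [385 to 455] against 181 [165 to 198]), and no later single step passed 2-fold. Over the classes, mature OSN-like cells had 84.2 CPM of Kdm1a against 456 in INP-like cells, a 5.37-fold difference.

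**Figure D1:**
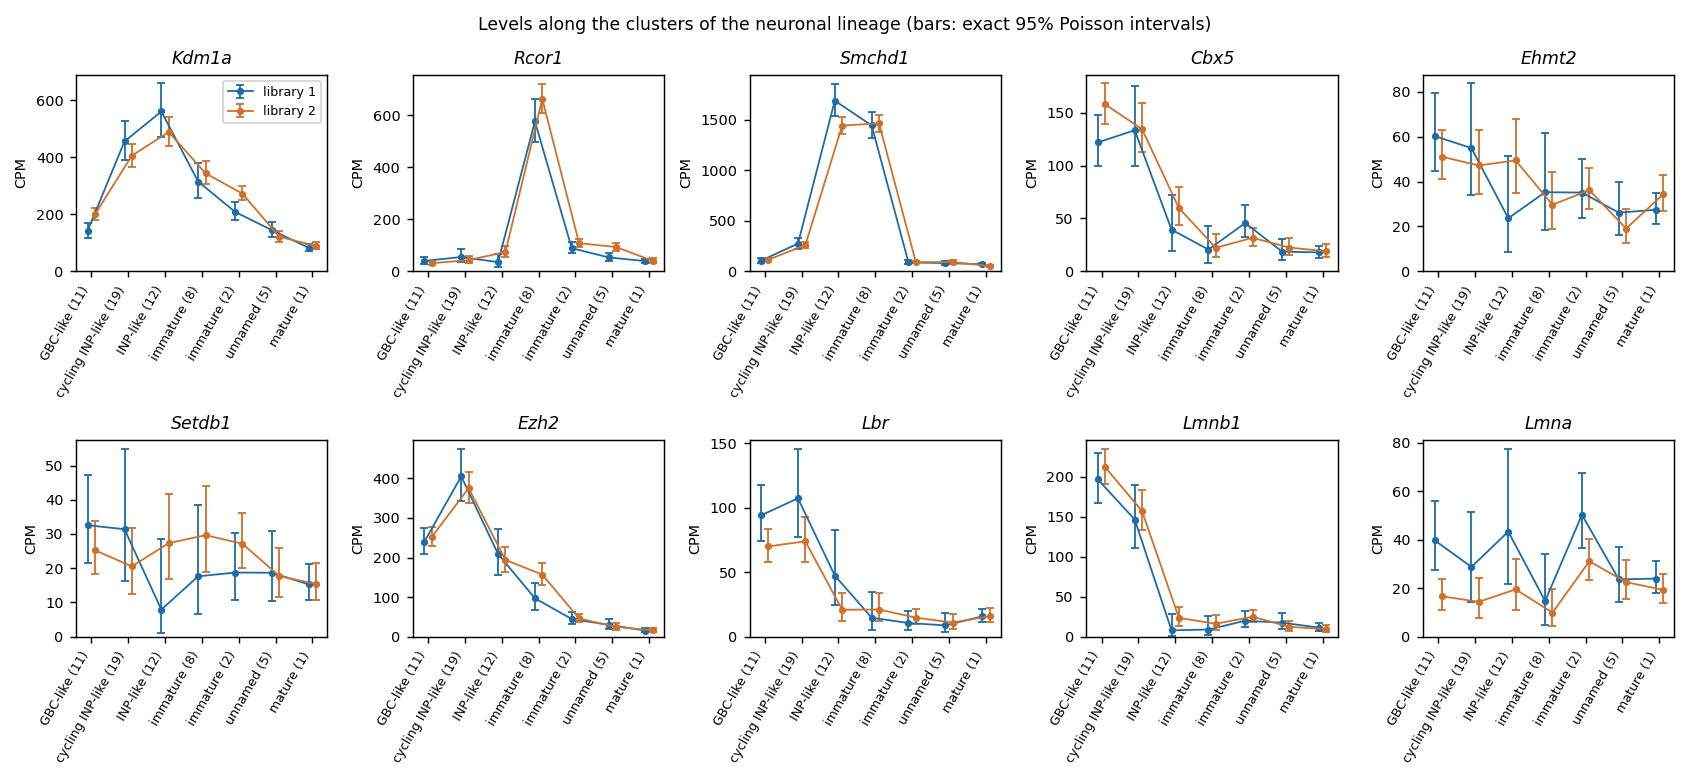
Level of each of the 10 genes (CPM, linear axis from 0, each gene on its own scale) in 7 clusters ordered from GBC-like to mature OSN-like cells. Points are library 1 (blue) and library 2 (orange), with cluster numbers in brackets on the x axis. Bars are exact 95% Poisson intervals. Smchd1 is high in clusters 12 and 8, Rcor1 in cluster 8, and Lmnb1 and Lbr in clusters 11 and 19.

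Ezh2 encodes the methyltransferase of Polycomb repressive complex 2, which places methyl groups on histone H3 lysine 27. Its level was 240, 405, 209, 97.0, 44.5, 29.9 and 15.3 CPM along the 7 clusters in library 1 and 252, 375, 194, 157, 45.8, 24.5 and 15.8 CPM in library 2. From cluster 19 onward each cluster was lower than the one before in both libraries. Ezh2 was 16.3-fold lower in mature OSN-like (17.7 CPM [14.4 to 21.4]) than in INP-like cells (304 [282 to 327]), the widest class difference of the 10 genes on this path.

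Lmnb1 encodes lamin B1, a fiber protein under the inner nuclear membrane. It stood at 197 and 212 CPM in cluster 11 of libraries 1 and 2, at 146 and 157 in cluster 19, and between 7.88 and 24.9 CPM in the 5 later clusters of either library. The drop fell between clusters 19 and 12 and was 7.54-fold (154 CPM [134 to 176] against 19.6 [11.9 to 30.2]). Lbr, whose product binds lamin B and heterochromatin at the envelope, had 94.1 and 70.0 CPM in cluster 11, 107 and 73.9 in cluster 19, and 47.3 and 20.8 in cluster 12. It was 2.97-fold lower in cluster 12 than in cluster 19 (log2 -1.57), which came to -0.64 with cells thinned to 2000 UMIs. Over both libraries it lay between 10.1 and 19.1 CPM in clusters 8, 2, 5 and 1. Cbx5 encodes HP1 alpha, a reader of methylated histone H3 lysine 9. It had 122 and 158 CPM in cluster 11, 133 and 134 in cluster 19, 39.4 and 59.8 in cluster 12, and 20.6 and 22.2 in cluster 8, with steps of 2.42-fold and 2.45-fold down. The later step (log2 -1.29) did not pass 2-fold in library 1 alone or with at most 5% mitochondrial UMIs (-0.77).

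Another 3 genes were low along the whole lineage. Lmna, which encodes lamins A and C, had 11.3 to 37.4 CPM over the 7 clusters, with 13 to 99 UMIs behind each value. It passed 2-fold downward from cluster 12 to 8 and upward from cluster 8 to 2, both steps hanging on the 13 UMIs of cluster 8. Ehmt2, which encodes the histone H3 lysine 9 methyltransferase G9a, ranged from 21.6 to 54.0 CPM, and Setdb1, which encodes another such enzyme, from 15.3 to 27.6 CPM, with no step past 2-fold. Smaller steps were seen from cluster 2 to 5, with log2 differences of -0.71 for Ehmt2 (counting error 0.25) and -0.68 for Lmna (0.25).

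The counts of the 10 were read against the share of all genes past 2-fold in each step. From GBC-like to INP-like cells 3 of the 10 passed 2-fold (Kdm1a and Smchd1 higher, Lmnb1 lower), where 24.0% of 9233 genes did. From INP-like to immature OSN-like cells 7 passed (Rcor1 higher, Kdm1a, Smchd1, Lbr, Lmnb1, Cbx5 and Ezh2 lower), where 32.8% of 10022 genes did, and the median log2 difference was -1.04 for the 10 and 0.22 for all. In that step the log2 difference of Smchd1, -1.04, turned to 0.051 with the highest doublet scores removed and to 1.29 at a clustering resolution of 0.6. From immature to mature OSN-like cells 4 were lower (Kdm1a, Rcor1, Smchd1 and Ezh2), where 25.2% of genes passed in either direction and 12.2% were lower. From INP-like to mature OSN-like cells 6 were lower and none higher, where 17.8% of genes were lower and 29.6% higher. Of the 10, Rcor1, Lmna, Ehmt2 and Setdb1 did not pass on that path.
Between single clusters, 2 of the 10 passed from cluster 11 to 19 (19.6% of all genes), 4 from 19 to 12 (23.3%), 3 from 12 to 8 (19.9%), 4 from 8 to 2 (21.4%), 0 from 2 to 5 (17.7%) and 0 from 5 to 1 (8.18%). The steps into and out of clusters 12 and 8 had the largest counts, but the shares of all genes were also higher there than in the later steps. Counts this small, out of 10 genes, say little about the 10 as a set. Just under that line were Ezh2 from cluster 19 to 12 (log2 -0.95), Kdm1a from cluster 2 to 5 (log2 -0.95) and Rcor1 from cluster 5 to 1 (-0.98). Library 1 alone gave 5 from cluster 12 to 8 and 2 from 2 to 5, and library 2 alone gave 1 from 2 to 5 and 1 from 5 to 1. The first step gave 0 when cells were held to at most 5% mitochondrial UMIs, and that from 2 to 5 gave 3 after thinning.

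Other measures moved along the same clusters. Median UMIs per cell were 12496 and 9346 in clusters 11 and 19 and between 4508 and 5393 in the 5 later ones. The summed level of 12 marker genes of sustentacular cells, the glia-like supporting cells, ran from 433 CPM in cluster 1 to 3156 in cluster 11, with 11 of 12 detected in each cluster. In sustentacular-like cells themselves Smchd1 was at 41.2 CPM, Kdm1a at 76.9 and Rcor1 at 21.9, each below its level in clusters 12 and 8. In cluster 12 the sustentacular sum was 173 CPM in library 1 and 1497 CPM in library 2, and Smchd1 was 1691 and 1444 CPM there. Marker genes of blood cells summed to between 10.9 and 49.95 CPM in the 7. With cells thinned to 2000 UMIs Rcor1 averaged 1.49 UMIs per cell in cluster 8 and at most 0.224 in any other of the 7. The part of sustentacular RNA in these differences was not tested.

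Partners of the 10 genes were described from lists of companion genes. Among CoREST and LSD1 partners, 13 genes, Hdac2 was highest in cluster 8, as was Rcor1, and Rcor2 was not. Rcor2, which encodes another CoREST scaffold, stood at 17.1, 197, 131, 43.5, 25.5, 5.28 and 1.31 CPM along the 7 clusters. It was lower in the same step in which Rcor1 was higher, and this held in each library (126 to 44.1 and 133 to 43.2 CPM from cluster 12 to 8). Hdac2, a deacetylase of the complex, had 281 CPM in cluster 12, 913 in cluster 8 and 371 in cluster 2, while Hdac1 had 31.3, 23.5 and 33.2 CPM. From cluster 12 to 8, 2 of the 11 measured partners were higher (Hdac2 and Zmym3), where 11.4% of all genes were, and 1 was lower (Rcor2), where 8.43% were.

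In the Polycomb list, 24 genes, the complex partners of Ezh2 differed among themselves. Eed had 197 CPM in cluster 11, 238 in cluster 19 and 52.8 in cluster 12, and Rbbp4 had 460, 726 and 347 CPM, so both were highest in cluster 19 and lower after it, as was Ezh2. Suz12 had its highest level in cluster 8, 379 and 410 CPM in libraries 1 and 2, against 170 and 180 CPM in cluster 12 and 87.7 and 101 CPM in cluster 2. Ezh1, the paralog of Ezh2, ran the other way from it, with 8.10 CPM in cluster 19 and 32.6 CPM in cluster 1. From INP-like to immature OSN-like cells 5 of 22 measured Polycomb genes were higher, where 23.3% of all genes were, and 3 were lower (Eed, Mtf2 and Rbbp4), where 9.44% were.

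Of the 18 genes for HP1 proteins and histone H3 lysine 9 methylation, 6 were lower from INP-like to immature OSN-like cells and 1 was higher, against 9.44% and 23.3% of all genes. The lower ones included the HP1 genes Cbx1 and Cbx3, the methyltransferase genes Suv39h1 and Suv39h2, and Trim28, which encodes the corepressor that recruits SETDB1. Kdm4b was lower too (47.1 to 11.7 CPM). The higher one, Setdb2, encodes a SET domain protein related to SETDB1 and went from 17.6 CPM in cluster 12 to 77.4 in cluster 8. The INP-like class pools clusters 19 and 12. Between these, 3 of the 18 were lower (Suv39h1, Suv39h2 and Trim28) and 3 higher, against 11.6% and 11.7% of all genes. From cluster 12 to 8, 1 of 16 measured was lower (Kdm4b) and 2 were higher (Mphosph8 and Setdb2), against 8.43% and 11.4%. Of 15 silencing factors, 13 were measured from INP-like to immature OSN-like cells. There 2 were higher (Dnmt3a and Lrif1) and 4 lower (Dnmt1, Hells, Mbd2 and Uhrf1), against 23.3% and 9.44% of all genes. Lrif1, which encodes a known partner of SMCHD1, was at 22.5 CPM in cluster 12, 69.6 in cluster 8 and 47.7 in cluster 2. The maintenance DNA methyltransferase gene Dnmt1 went from 135 CPM in cluster 19 to 30.3 in cluster 12, and the de novo enzyme gene Dnmt3a from 33.9 CPM in cluster 19 to 109 in cluster 8.

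Among 20 nuclear envelope genes, 3 of 16 measured were lower from INP-like to immature OSN-like cells (Nup153, Sun2 and Tmpo), where 9.44% of all genes were, and none was higher, where 23.3% were. Tmpo, which encodes the lamina-binding LAP2 proteins, had 516 CPM in cluster 19 and 124 in cluster 12, the step in which Lmnb1 and Lbr were lower. Lmnb2, the gene for lamin B2, had 26.9 to 61.1 CPM over the 7 clusters and did not pass 2-fold there in that step. Sun1, which links the lamina to the cytoskeleton, was highest in cluster 1, at 166 CPM against 40.5 in cluster 19.

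**Figure D2:**
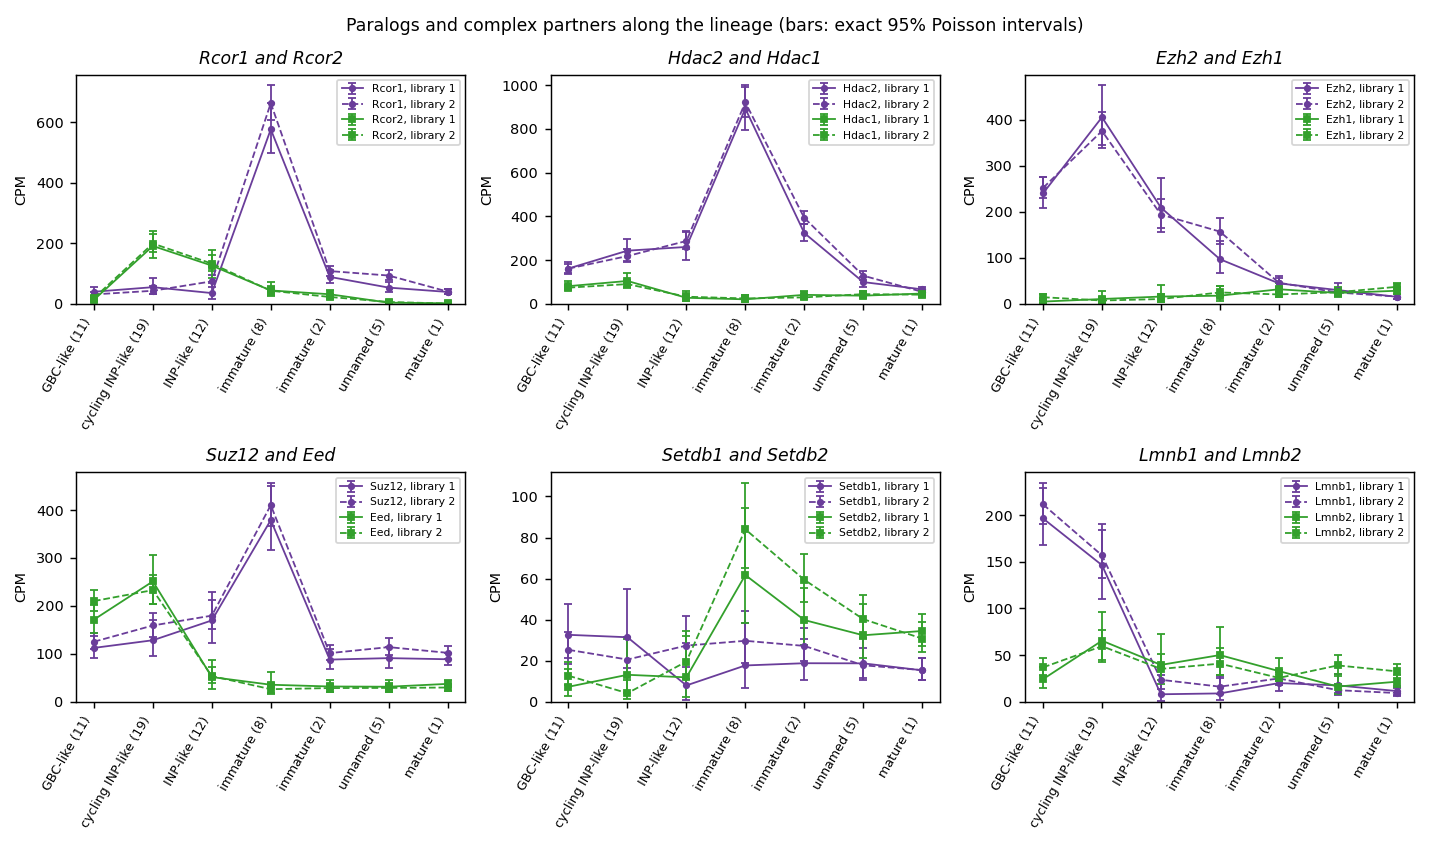
Levels (CPM, linear axis from 0) of 6 pairs of paralogs or complex partners along the 7 clusters. Colors mark the gene, solid lines library 1 and dashed lines library 2, and bars exact 95% Poisson intervals. From cluster 12 to 8 Rcor2 goes down and Rcor1 goes up (43.5 and 637 CPM in cluster 8). After cluster 8 both are lower, and only from cluster 12 to 8 do they pass 2-fold in opposite directions. Hdac2 and Suz12 peak in cluster 8 in both libraries, and Eed is low from cluster 12 on.

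Receptor UMIs, which took no part in the clustering, gave another axis, although their mean per cell went up from cluster 12 to 1. Of 2999 lineage cells, 2926 had 2000 UMIs to be thinned to, and 73 shallower cells were left out. Cells with 0, 1 to 2, 3 to 9, 10 to 29 and 30 or more receptor UMIs numbered 898, 301, 618, 813 and 296. Smchd1 stood at 375, 379, 184, 83.6 and 56.3 CPM in these bins. Rcor1 stood at 72.0, 197, 133, 57.7 and 45.3 CPM, so it was highest in cells with 1 or 2 receptor UMIs. Of those 301 cells 76 were in cluster 8, and 2.58% to 12.5% of cells in the classes outside the lineage also held 1 or 2, so this bin need not mark the onset of receptor expression. The libraries had 182 and 204 CPM of Rcor1 in that bin and 64.5 and 75.6 in cells with none. Kdm1a went from 249 CPM with no receptor UMI to 118 with 30 or more, and Ezh2 from 191 to 23.4. Lmnb1 went from 107 to 11.7 CPM, Lbr from 50.2 to 13.04 and Cbx5 from 97.3 to 18.5. The bin with none pools dividing cells with precursors, and stage and receptor level cannot be told apart in it.

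Within cluster 8 alone, 72 cells had no receptor UMI, 76 had 1 to 2 and 66 had 3 to 9. Smchd1 was 1829 CPM [1687 to 1979], 1425 [1311 to 1547] and 1141 [1033 to 1257] in these cells. In library 2 the values were 1980, 1424 and 1075 CPM. In library 1 only the first 2 bins held 20 or more cells, and there Smchd1 was 1423 and 1429 CPM, so the gradient was seen in library 2 only. Rcor1 was 603, 617 and 748 CPM and Kdm1a 333, 360 and 292 CPM in the 3 bins, with overlapping intervals between neighbours. In cluster 2, where cells with 3 to 9 and 10 to 29 receptor UMIs numbered 179 and 135, Smchd1 was 100 and 78.0 CPM and Kdm1a 288 and 265 CPM. Kdm1a was lower, at 198 CPM [169 to 230], in the 149 cells of cluster 2 with 2 or fewer receptor UMIs. In its 158 cells with 10 or more it was 267 CPM [232 to 306].
Over the whole immature class, 166 cells rich in receptor RNA (10 UMIs or more) were set against 402 that had at most 2. These cells sat in different clusters: 158 of the 166 were in cluster 2, while the 402 were split into 149 in cluster 2, 148 in cluster 8 and 105 in cluster 15. Of the 10 genes, 3 passed 2-fold, where 20.2% of genes did: Smchd1 was 3.84-fold lower (133 against 512 CPM), Rcor1 2.86-fold lower (83.7 against 241 CPM) and Lmna 2.20-fold higher (47.7 against 21.1 CPM). Within cluster 2 alone Smchd1 was 79.6 CPM [61.1 to 102] in the rich cells and 89.3 [70.3 to 112] in those with at most 2, and Rcor1 75.8 [57.7 to 97.7] and 132 [109 to 159]. The Smchd1 difference over the class was thus not seen within cluster 2. There Lmna was 42.4 CPM [29.2 to 59.5] in the rich cells and 29.8 [19.3 to 44.0] in those with at most 2, with overlapping intervals. When receptor UMIs were counted without thinning, 1 of the 10 genes passed over the class. Kdm1a, at 254 CPM in cells with many and 203 in cells with few, did not pass.

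**Figure D3:**
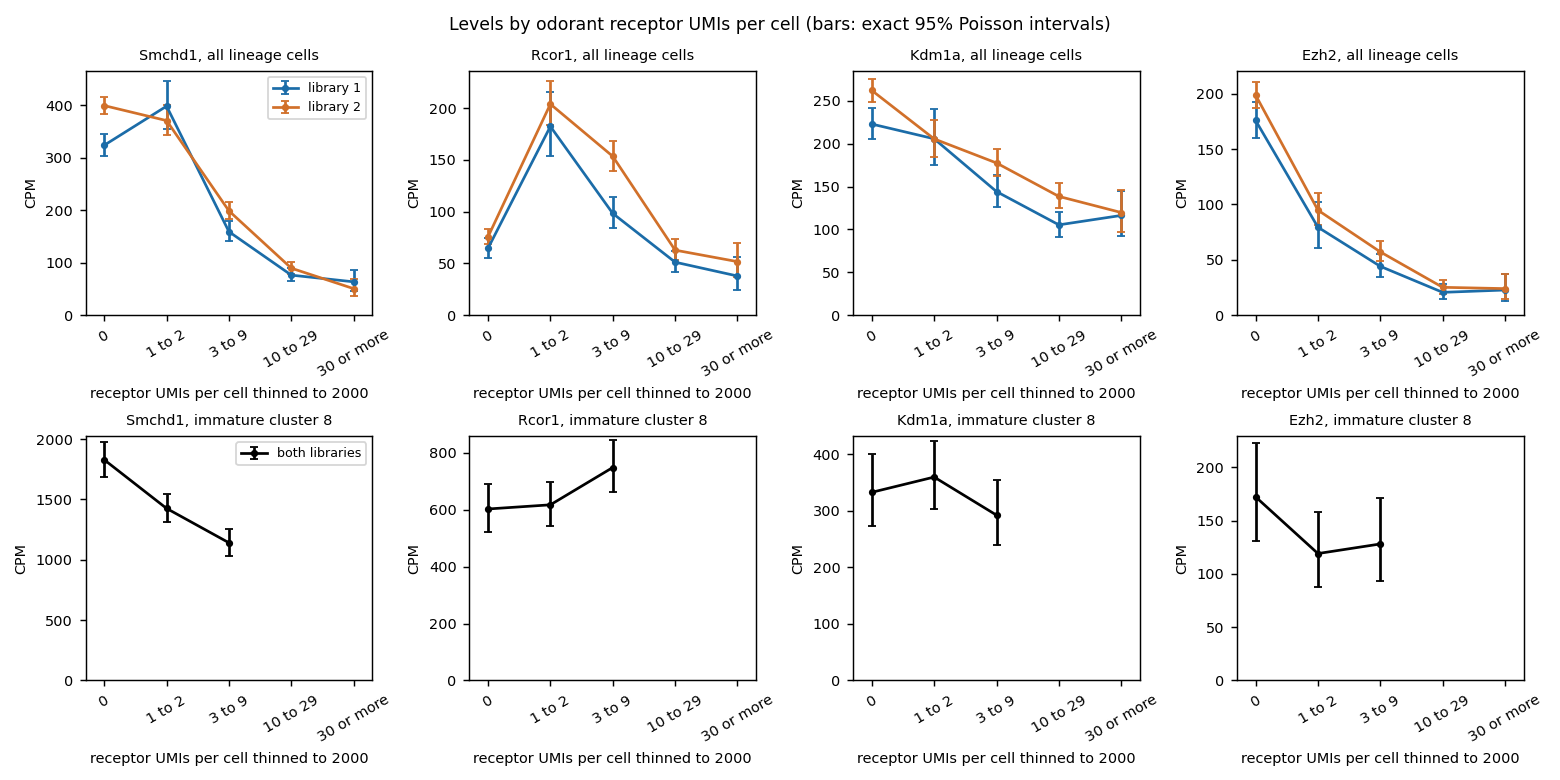
Level (CPM, linear axis from 0) of 4 genes by odorant receptor UMIs per cell after thinning to 2000 UMIs, for all lineage cells by library (top row) and within cluster 8 over both libraries (bottom row). Bars are exact 95% Poisson intervals, and bins under 20 cells are left out. Rcor1 is highest at 1 to 2 receptor UMIs in each library (182 and 204 CPM), and Smchd1 within cluster 8 goes from 1829 to 1141 CPM over both libraries. With each library taken alone, that gradient was seen in library 2 only, and library 1 had fewer bins.

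Across the 18 named classes of at least 50 cells, neuronal and other, the genes fell into different orders. Smchd1 was 797 CPM in INP-like and 387 in immature OSN-like cells, against a median class of 79.7 CPM. The order of these 2 classes turned with the highest doublet scores removed and at a clustering resolution of 0.6, as given above. T/NK-like and B lineage-like cells, at 161 and 147 CPM, came next, and their intervals overlapped (126 to 204 and 126 to 170). Rcor1 was 208 CPM in immature OSN-like cells and 13.8 to 54.2 in all the others. Kdm1a was 456 CPM in INP-like, 222 in immature OSN-like and 181 in GBC-like cells, and at most 119 elsewhere.

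By the highest over the lowest class, Lmna differed most (91.8-fold), though its lowest class rests on 6 UMIs. By the highest over the median class Ezh2 came first (11.1-fold), then Lmna (10.5-fold) and Smchd1 (10.005-fold). Lmna was 461 CPM [389 to 543] in endothelial-like cells, 376 [336 to 420] in fibroblast-like cells and 317 [302 to 333] in HBC-like cells, the 3 highest of the 18 classes in each library. Levels in the libraries were 424 and 496, 408 and 357, and 363 and 287 CPM for these 3. Both HBC-like clusters had it, at 232 CPM in cluster 3 and 405 in cluster 4, which was led by Krt15 and Krt14. GBC-like cells, at 24.1 CPM, and every neuronal class, at 21.4 to 27.0 CPM, lay far lower. The lowest class was B lineage-like, with 5.03 CPM from 2 and 4 UMIs in the libraries. The HBC-like, fibroblast-like and endothelial-like classes thus held far more A-type lamin message than the GBC-like and neuronal classes.

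Lmnb1 had another order. It was 207 CPM in GBC-like, 179 in neutrophil-like, 118 in B lineage-like and 96.2 in INP-like cells, but 23.1 in HBC-like, 8.41 in fibroblast-like and 3.20 in endothelial-like cells (1 and 0 UMIs in the libraries). Over the 18 classes the log2 levels of Lmna and Lmnb1 had a Pearson r of -0.62, given as a description of classes that share libraries. Both were low in mature (21.8 and 11.2 CPM) and immature OSN-like cells (27.0 and 18.8 CPM), and neutrophil-like cells, second for Lmnb1, had Lmna at 61.5 CPM, above the median class (44.1 CPM). Lbr was highest in neutrophil-like (200 CPM), B lineage-like (116), T/NK-like (92.0) and macrophage- or monocyte-like cells (86.4), and lowest in ensheathing-like glia (8.72, from 4 UMIs) and in mature OSN-like cells (17.7). In neutrophils the lamin B receptor is known for its part in shaping the lobed nucleus.

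Ezh2 was 304 CPM in INP-like, 248 in GBC-like and 111 in B lineage-like cells, and at most 65.7 elsewhere. Cbx5 was highest in GBC-like cells (146 CPM) and next in ensheathing-like glia (116), with libraries at 117 and 115 CPM in the latter. Ehmt2 went from 20.9 CPM in neutrophil-like to 98.1 in gland duct- or goblet-like cells, and Setdb1 from 8.72 to 27.9 CPM. Setdb1 varied least of the 10, by 3.19-fold from the lowest to the highest class.

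**Figure D4:**
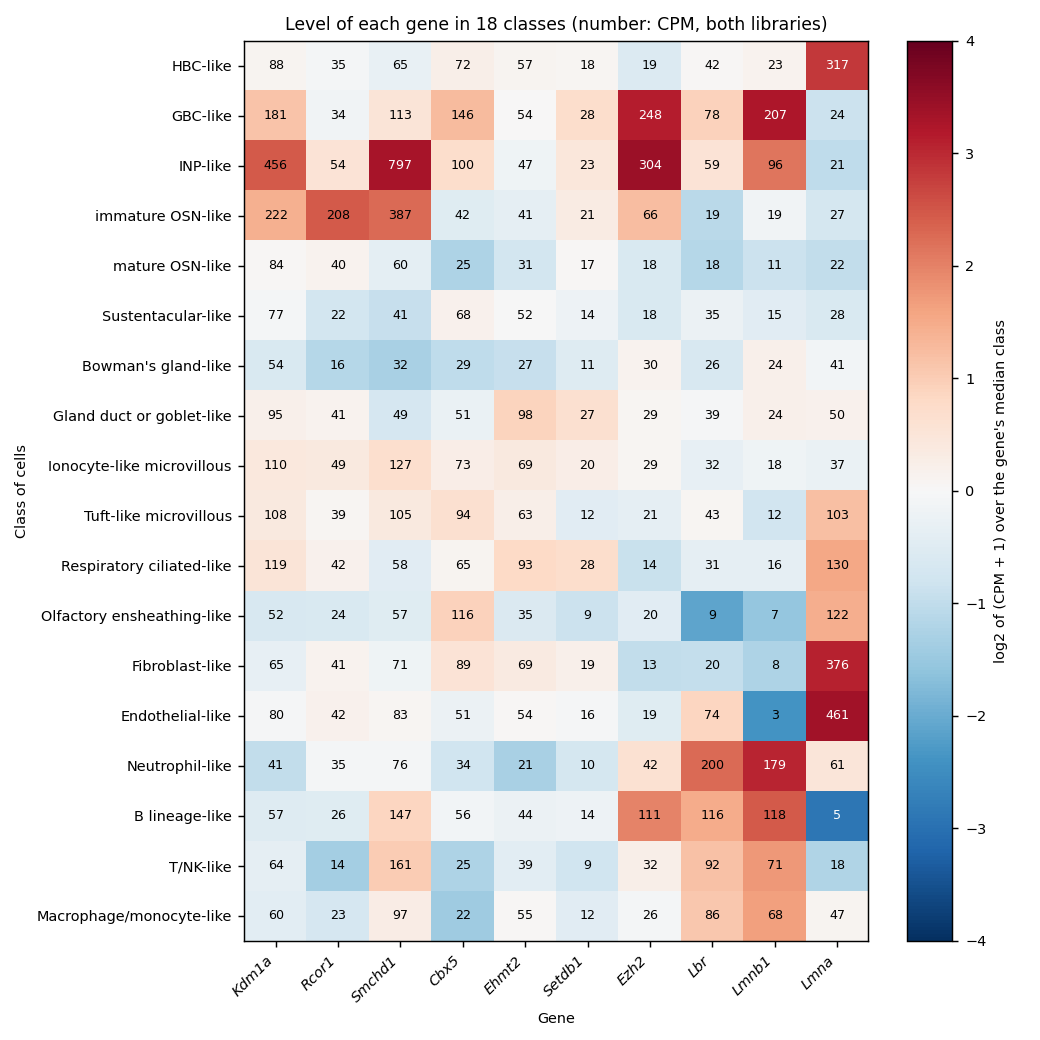
Level of each gene in 18 classes of cells, both libraries summed. Numbers are CPM and color is the log2 of CPM plus 1 over the median class of that gene (red above, blue below). Smchd1 stands out in INP-like and immature OSN-like cells, Kdm1a in INP-like cells, Rcor1 in immature OSN-like cells, and Lmna in endothelial-like, fibroblast-like and HBC-like cells (461, 376 and 317 CPM).

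The replication and mitosis genes, 18 in all, gave a measure of proliferation. Their summed level was 4820 and 5763 CPM in clusters 11 and 19 and 413 CPM in cluster 12, where 17 of the 18 were lower. Lmnb1, Lbr and Cbx5 were lower in that same step. Over the 38 clusters the Pearson r of the log2 levels with this sum was 0.66 for Ezh2, 0.64 for Lmnb1, 0.51 for Lbr, 0.43 for Cbx5, 0.05 for Rcor1 and -0.26 for Lmna. These clusters share libraries and depth, and r is a description.
Some clusters stood off that line. The neutrophil-like cluster 7, led by Retnlg, had Lmnb1 at 251 CPM and Lbr at 230 CPM with only 45.8 CPM of the 18 genes, and the unnamed cluster 21, led by Il1b, had Lmnb1 at 282 CPM and Lbr at 141 with 77.0 CPM. Cluster 34, B lineage-like cells led by the pre-B genes Igll1 and Vpreb1, had 6018 CPM of the 18 genes, Lmnb1 at 369 CPM, Ezh2 at 316 CPM and no Lmna UMI in 37 cells (interval up to 13.9 CPM). Cluster 12 had Ezh2 at 198 CPM with the cycling genes already low.

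**Figure D5:**
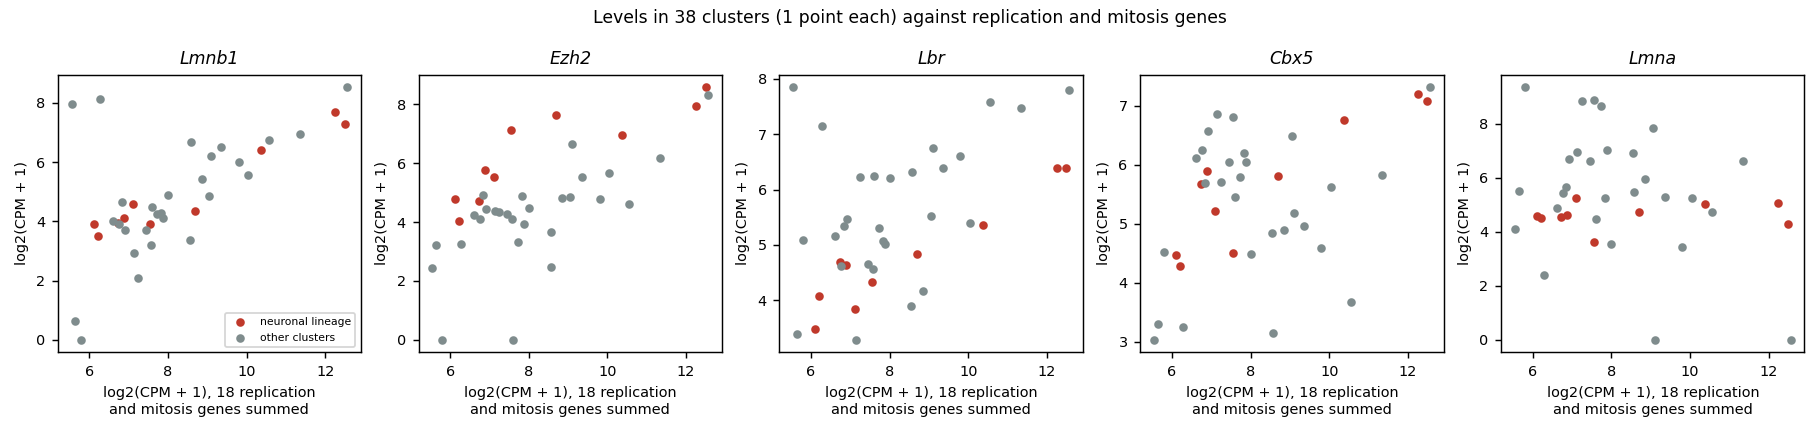
Log2 level (CPM plus 1) of 5 genes against the log2 of the summed CPM (plus 1) of 18 replication and mitosis genes, 1 point for each of 38 clusters. Red points are clusters of the neuronal lineage and gray points all others. Lmnb1 and Ezh2 are higher in clusters with more of the 18 genes (r of 0.64 and 0.66), and the 2 gray points at the upper left of the Lmnb1 panel are clusters 7 and 21.

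The genes with the most similar levels over the 18 classes were found for each of the 10 among 14705 genes. For Lmnb1 they were Kif15 (r = 0.95), Mcm5 (0.95) and Hist1h2ap (0.93), and for Ezh2 Snrpd1 (0.94), Snrpe (0.92) and 2610318N02Rik (0.92). Kdm1a was most like Tsg101 (0.93), Pbrm1 (0.92) and Cep70 (0.92), Smchd1 like Smarce1 (0.88), Mss51 (0.87) and Pdap1 (0.86), and Rcor1 like Shprh (0.85), Actl6b (0.83) and Cntn2 (0.83). Lbr was most like Cdca7 (0.88), Fam111a (0.86) and Abracl (0.85), and Lmna like Prss23 (0.89), Marveld1 (0.88) and Tmem150a (0.88). Cbx5 was most like Matr3 (0.89), Anapc7 (0.87) and Ccdc8 (0.84), Ehmt2 like Ppp6r3 (0.83), Pgm2l1 (0.82) and Inppl1 (0.82), and Setdb1 like Kcnq1ot1 (0.86), Gnl2 (0.86) and Srek1 (0.85). Of these 30 pairs, 9 were found again with Spearman's rho and 1 without the 4 neuronal classes. Most of them thus depend on the measure and on the classes used. Among genes of at least 50 CPM 21 were found again, but r is the same there and only the genes searched differ. Setdb1 does not reach that level, so its pairs could not recur.

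The libraries were set side by side in mature OSN-like cells, 491 and 514 cells. None of the 10 genes passed 2-fold there, where 4.78% of 9503 genes did. The log2 difference of library 2 over library 1 ran from -0.26 for Smchd1 (65.2 and 54.2 CPM) to 0.19 for Ehmt2 (29.2 and 33.5 CPM). Kdm1a had 79.7 and 89.5 CPM, and Ezh2 18.9 and 16.2 CPM. In cluster 12, with 51 and 148 cells, 6 of the 10 passed, where 18.3% of 8865 genes did. Counting errors of these 6 log2 differences were large, from 0.52 for Rcor1 (log2 1.04) to 1.08 for Lmnb1 (1.46). This count thus need not mean that the libraries differ more there. Rcor1 (35.5 and 74.2 CPM), Lmnb1 (7.88 and 23.4), Ehmt2 (23.7 and 49.4) and Setdb1 (7.88 and 27.3) were higher in library 2, and Lbr (47.3 and 20.8) and Lmna (43.4 and 19.5) were lower. Lmna also passed in GBC-like cells (39.8 and 16.6 CPM), where 5.54% of genes did, and in INP-like cells (34.6 and 16.6 CPM), where 5.7% did. Over the 24 classes and clusters compared, some of which share cells, 25 of 237 values passed. The share of all genes is given here only for the groups named above, so this count has no share beside it. Some of these values rest on no UMI in a library. Examples are Rcor1 in T/NK-like cells (0 and 20.3 CPM, counting error 2.12 in log2) and Setdb1 in endothelial-like cells (0 and 31.0 CPM, 2.14).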

How the data were processed

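UMI counts per gene and cell were made by the authors with Cell Ranger 3.0.2 on mm10, per the submitters' processing notes, and deposited as 1 aggregated count matrix. No source used here says whether depth was equalized between libraries. Kept barcodes had 1000 UMIs or more, 500 genes or more and mitochondrial UMIs of 10% or less, while 12 barcode sequences occur in both libraries, 6 of them among kept cells. Cells were clustered with scanpy 1.11.5 and leidenalg 0.10.2 (2000 variable genes, 30 components, 15 neighbors, resolution 1). The 10 genes, the companion genes other than the replication and mitosis list, receptor and mitochondrial genes were held out. Clusters were named "X-like" by the class with most markers among their 10 leading genes (detected in at least 20% of cells) and at least 3 among the leading 50, a rule set after seeing the clusters. From GBC-like and INP-like clusters 7 cells with blood genes were left out, likewise chosen after seeing the data. Doublets were not removed, and an alternative took out 109 and 337 cells.

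UMIs were summed per group and scaled to CPM. Comparisons use genes that reach 10 CPM in either group. This step was tested on simulated counts. There is 1 library per side, so no test was made. All 10 genes are named. For each, the 3 genes with the highest Pearson r over classes are named too, and companion genes where they passed in the same step as a gene of the same complex, with other companions shown for the same complexes chosen after their values were seen. The 10 genes and the lists were chosen with earlier results of these data known. Reads from genes overlapping on the same strand (Gm12987 in Kdm1a, Gm48632 in Rcor1, Gm37639, Gm38220 and Gm4707 in Smchd1, Gm26004 in Lbr; GENCODE M21) may be split between them or lost.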

Additional observations from a re-analysis of the deposited data

How the results depend on the processing

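No paired analysis was possible because each side has 1 library and nothing was tested. Of 165 recomputed counts of the 10 genes past 2-fold, 152 stayed within 1.5 times the reported count and 13 did not. From cluster 11 to 19 (2 reported) the count was 0 with at most 5% mitochondrial UMIs and 1 with no cell filter. From cluster 12 to 8 (3 reported) it was 5 in library 1 alone. From cluster 2 to 5 (0 reported) it was 3 with a higher UMI minimum per cell, 3 with cells thinned to 2000 UMIs, 2 in library 1 alone, 1 in library 2 alone, 2 with the 10 genes allowed in the clustering and 1 at resolution 1.5. From cluster 5 to 1 (0 reported) it was 1 in library 2 alone, 1 with the genes allowed in the clustering and 1 with thinning. The count by receptor UMIs (3 reported) was 1 without thinning. The cause was not tested.

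Of 1650 recomputed log2 differences of single genes, 1420 moved by less than their counting error, 228 moved further and 2 were counted as reversed. Both are Smchd1 from INP-like to immature OSN-like cells, -1.04 as reported. It was 0.051 with the highest doublet scores removed and 1.29 at resolution 0.6. Some differences below 2-fold as reported also changed sign without being counted as reversed. Rcor1 from cluster 11 to 19 (0.45) went as low as -0.52, and Ehmt2 from cluster 12 to 8 (-0.45) as high as 0.56. The cause was not tested. From cluster 12 to 8 Rcor1 ranged from 3.12 to 3.98 over 13 alternatives, and from cluster 8 to 2 Smchd1 ranged from -4.12 to -3.81 over 14. Other steps were less steady. From cluster 19 to 12 Rcor1 (0.47 as reported) ranged from -0.62 in library 1 alone to 2.96 at resolution 0.6, and Lbr (-1.57) from -1.81 at resolution 0.6 to -0.64 with thinning. From cluster 12 to 8 Cbx5 (-1.29) ranged from -1.72 with thinning to -0.77 with at most 5% mitochondrial UMIs. At resolution 0.6 some neighboring clusters became one and gave no value. Depth limits Setdb1, Ehmt2, Lmna and Lbr, whose cluster sums in the lineage hold 13 to 200 UMIs.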
